A study of Mus with 2 samples.

Results

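Solute carriers are the membrane proteins of the Slc families, and the genes described here are those that were well covered in cells of newborn mouse kidney. A gene was included when its symbol began with Slc followed by a digit and when it held at least 2000 unique molecular identifiers (UMIs, counts of single RNA molecules) over 2 libraries, in barcodes with at least 2000 UMIs and at most 10% mitochondrial UMIs. The rule kept 129 of the 373 Slc genes among 28693 features. Of the others, 240 held at least 1 UMI and 4 held none. The members just inside the limit were Slc39a3 (2080 UMIs), Slc26a7 (2056 UMIs) and Slc7a7 (2032 UMIs), and the genes just outside it were Slc3a1 (1966 UMIs), Slc35e1 (1894 UMIs) and Slc12a4 (1892 UMIs). The members were thus chosen by their total count, so their abundance is no finding here. Of the 129, 125 encode carriers from 42 families, 19 of which have 1 member in the set. The other 4 share the prefix only: Slc9a3r1 and Slc9a3r2 encode scaffold proteins that bind membrane proteins, Slc4a1ap encodes an adaptor protein, and Slc7a6os is named for its position opposite Slc7a6. All 129 passed the filter on low counts and were among the 15327 genes tested. Together they held 0.564% of the UMIs in replicate 1 and 0.552% in replicate 2.

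Both libraries came from kidneys of mutant mice, Rbpj c/- ; Foxd1cre/+, at age P0, the day of birth. In these mice Cre recombinase under control of Foxd1, a gene of renal interstitial precursors, deletes a conditional allele of Rbpj, which encodes the DNA-binding partner of Notch receptors. Controls of genotype Rbpj c/+ ; Foxd1cre/+ belong to the series and were not analysed here, so every value below describes mutant kidneys and none measures what the deletion does. The Rbpj transcript was at 26.0 and 24.6 CPM (UMIs scaled to a fixed total per class and library) in stromal cells and at 46.5 and 47.1 CPM over all cells, and 3′ counts do not show whether an internal exon is missing. After filtering, 5910 cells with a median of 11727.5 UMIs remained in replicate 1, and 4937 cells with a median of 12196 UMIs in replicate 2. The 2 matrices totalled 163405630 and 135436576 UMIs and shared 6 barcode sequences. The labels do not say whether the libraries came from separate animals, so p-values measure only the spread between these 2 libraries, which may be technical.

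Solute carriers move ions, sugars, amino acids, metals and metabolites across the plasma membrane and the membranes of organelles. Along the nephron, the proximal tubule takes back most of the filtered glucose, phosphate, amino acids and bicarbonate, the thick ascending limb of the loop of Henle reabsorbs salt without water, and the distal tubule and collecting duct adjust the rest. Other families serve every cell, such as the mitochondrial carriers (Slc25), the nucleotide-sugar carriers of the secretory pathway (Slc35) and the zinc carriers (Slc30 and Slc39). The newborn mouse kidney still forms nephrons, so progenitors, young tubules and differentiated segments are present together.

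Cells were assigned to 13 classes by marker genes, none of which is an Slc gene. Replicates 1 and 2 held 314 and 235 proximal cells, 150 and 173 loop cells, 49 and 22 distal cells and 91 and 79 collecting duct cells. The other classes were ureteric tip, early nephron, nephron progenitor, podocyte, stroma, mural, endothelial, immune and erythroid cells. Intercalated cells, at 12 and 4, were too few to be compared. The proximal marker list summed to 7358 and 7576 CPM in proximal cells, and the loop list to 87.6 and 68.7 CPM in the same cells. The distal class was less distinct from its neighbours: its own list summed to 2608 and 2055 CPM, while the loop list reached 879 and 706 CPM there, against 1938 and 2017 CPM in loop cells. The collecting duct list summed to 586 and 489.9 CPM in distal cells, and the distal list to 767 and 627 CPM in loop and 707 and 617 CPM in collecting duct cells. Slc12a3, the thiazide-sensitive sodium-chloride cotransporter of the distal convoluted tubule and not a member of the set, stood at 75.7 and 80.9 CPM in distal cells and at no more than 3.63 CPM in any other class. Levels below are pairs of CPM for replicates 1 and 2, and are shares of the RNA of a class.

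**Figure D1:**
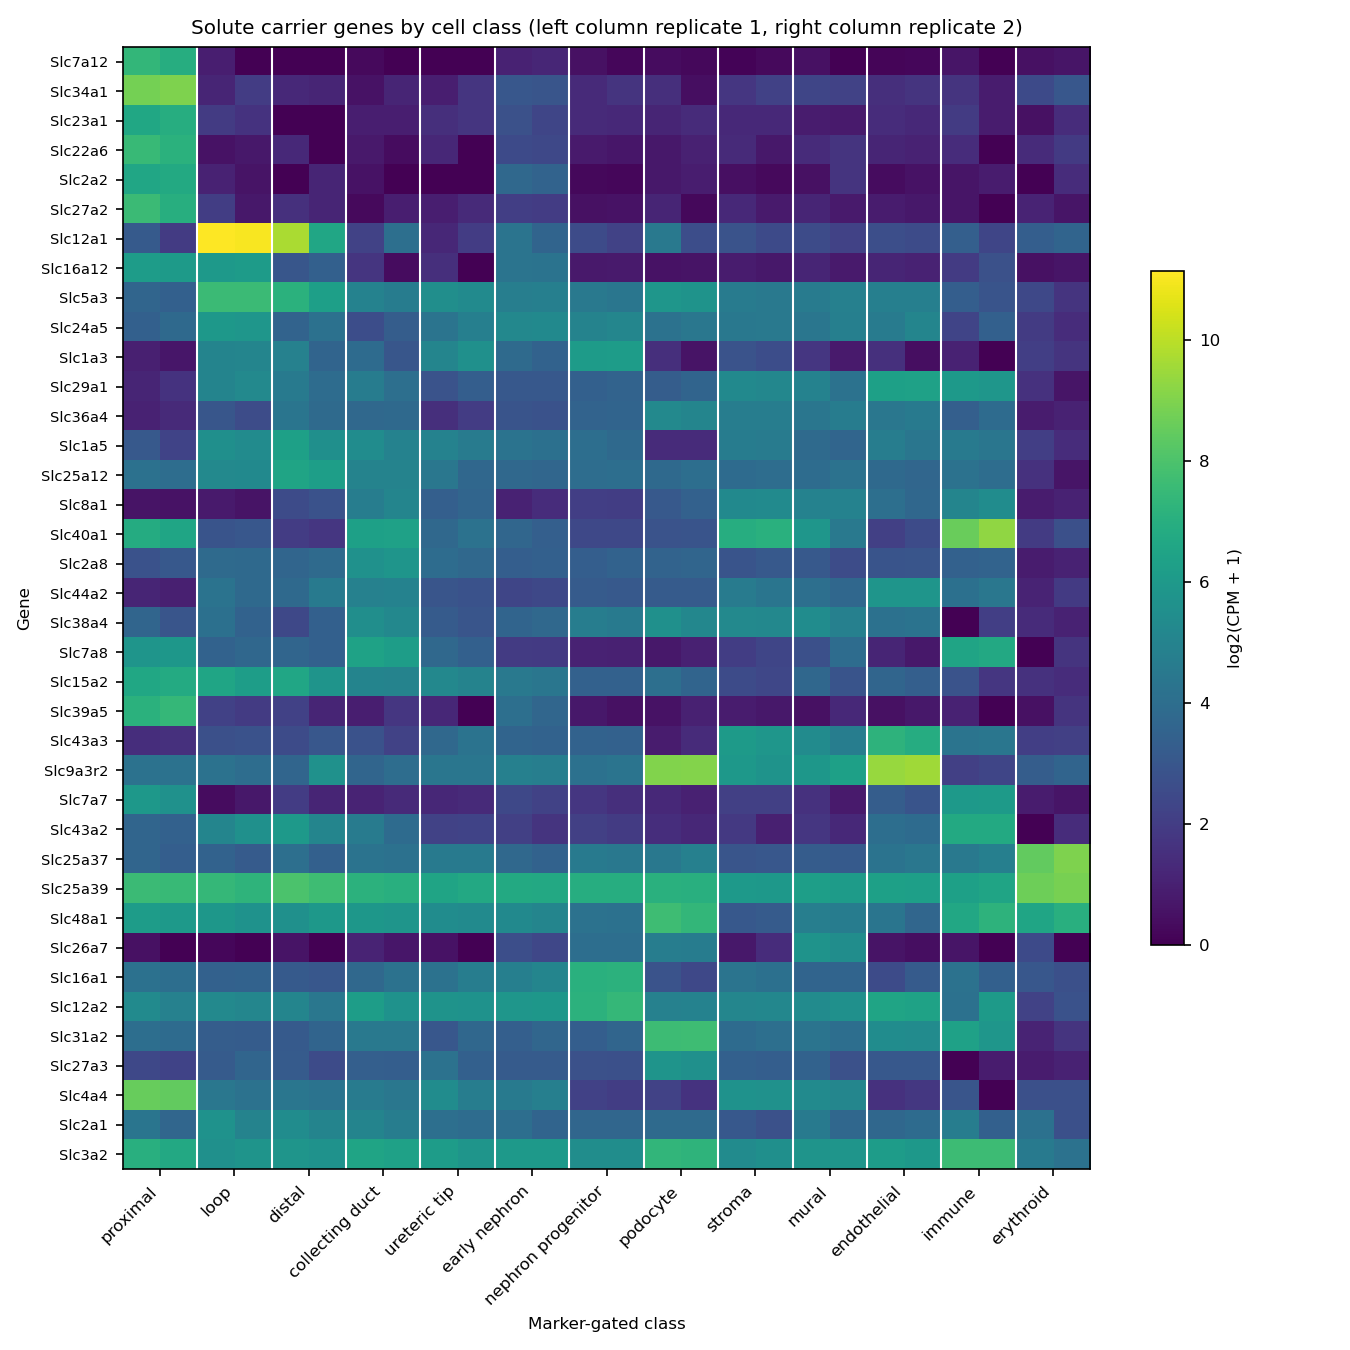
Levels of the named solute carrier genes (rows) as log2(CPM + 1) in the 13 cell classes (left column of each pair replicate 1, right column replicate 2). Slc34a1 and 5 other carriers at the top are brightest in proximal cells, Slc12a1 in loop cells, Slc9a3r2 in podocytes and endothelial cells, and Slc25a37 and Slc25a39 in erythroid cells.

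The class in which most members had their highest mean level was the proximal tubule. It held the top level of 36 of the 129 members (27.9%), against 9.39% of the 9195 features with at least 2000 UMIs in these classes, and for 29 of the 36 both libraries gave that class. Distal cells held the top level of 19 members (14.7%, against 9.90% of those features, and 9 in both libraries) and immune cells of 16 (12.4%, against 9.49%). Endothelial cells held 12, a share near that of all features (9.30%, against 9.13%), and podocytes 13, a share below it (10.1%, against 19.3%). A level at least 5-fold above the second class was found for 12 members. Of these, 11 were proximal (Slc27a2, Slc7a12, Slc2a2, Slc4a4, Slc6a13, Slc39a5, Slc47a1, Slc34a1, Slc6a18, Slc23a1 and Slc22a6) and 1 was erythroid (Slc25a37). All of the 11 but Slc4a4 reached the limit of 2000 UMIs only with their proximal UMIs. These ranks are a description without a test.

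The largest fitted increases of proximal cells over the other segments were those of the phosphate cotransporter Slc34a1, the organic anion exchanger Slc22a6, the amino acid carrier Slc7a12, the glucose carrier Slc2a2, the fatty acid transport protein Slc27a2 and the vitamin C carrier Slc23a1. Families differed: the 3 Slc2 members were split, with 1 higher and 2 lower, while of the 2 Slc1 members 0 were higher and 2 lower. Against the mean of loop, distal and collecting duct cells, 57 of the 129 members were higher (44.2%, against 25.9% of all genes tested) and 34 were lower (26.4%, against 23.1%). In either direction 49% of all genes were called. Differences of at least 2-fold that passed the test numbered 32 higher (11.4% of all genes) and 20 lower (11.7% of all genes). Of the 129, 20 reached the limit of 2000 UMIs only with their proximal UMIs, so their proximal UMIs helped to select them (13 were higher and 1 lower). Of the other 109, 44 were higher and 33 lower. In the other classes compared below, between 0 (distal and erythroid) and 18 members (nephron progenitor) reached the limit only with that class. Where such a gene is named in that class, its difference there is given as a description with no test. Proximal cells are also part of the mean against which loop, distal, collecting duct and the classes outside the tubule are compared. The part of the 20 members selected through proximal cells in the lower counts there was not tested. By library size alone, a scaling added after the data were seen, 50 members were higher and 43 lower, with a median over all genes of -0.15. In the fit reported the median log2 fold change was 0.20 over the members and 0.00 over all genes. The test was edgeR's quasi-likelihood test on summed UMIs with Benjamini-Hochberg adjustment over all genes tested and a threshold of 0.05, and all adjusted p-values below come from it.

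Slc34a1 encodes the apical sodium-phosphate cotransporter of the proximal tubule (GRCm38.p6 chromosome 13, 55399622 to 55414695). It stood at 450.0 and 498 CPM in proximal cells and at 0.454 to 2.96 CPM in the other 3 segments. Early nephron cells, the next class, held 7.22 and 6.74 CPM. Both proximal values lay far above all others, 62.4-fold and 73.9-fold the early nephron level. The proximal level exceeded that of the other 3 segments pooled 448-fold (95% interval 262 to 842) in replicate 1 and 222-fold (95% interval 148 to 351) in replicate 2, where intervals cover counting error only. With every cell thinned to 3000 UMIs, 54.3% (exact 95% interval 48.6 to 60.0) of 311 proximal cells held a UMI of Slc34a1 in replicate 1 and 53.0% (exact 95% interval 46.4 to 59.6) of 230 in replicate 2. Without thinning the shares were 87.6% and 84.3%, at median depths of 21142 and 20985 UMIs. Erythroid cells, which should lack the gene, had thinned shares of 1.40% and 2.19% at median depths of 4419.5 and 4538 UMIs. Free RNA, read from barcodes with more than 100 and at most 500 UMIs, held 86.4 and 115 CPM of Slc34a1.

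Organic anion and amino acid uptake gave the next 2 genes. Slc22a6, the basolateral organic anion exchanger (GRCm38.p6 chromosome 19, 8617996 to 8628299), was at 180.1 and 139 CPM in proximal cells and at no more than 4.72 CPM in any other class. Its proximal level exceeded the other segments 259-fold (95% interval 136 to 567) in replicate 1 and 285-fold (95% interval 122 to 879) in replicate 2. Slc7a12, an amino acid carrier (GRCm38.p6 chromosome 3, 14480697 to 14505819), was at 167 and 123 CPM in proximal cells and at no more than 1.30 CPM elsewhere. Replicate 1 held 7 UMIs of Slc7a12 in the other 3 segments and replicate 2 held 0. The proximal level exceeded theirs 308-fold (95% interval 149 to 768) in replicate 1. In replicate 2 it was at least 421-fold higher, taking 3 UMIs over the 3 segments as the floor, while the exact 95% interval began at 342-fold. Free RNA held 41.9 and 38.99 CPM of Slc22a6 and 12.6 and 8.46 CPM of Slc7a12.

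Sugar, fatty acid and vitamin C carriers completed the 6 largest proximal differences. Slc2a2, the basolateral facilitative glucose carrier (GRCm38.p6 chromosome 3, 28697903 to 28728361), was at 94.4 and 108 CPM, 136-fold (95% interval 71.3 to 298) and 278-fold (95% interval 108 to 1022) above the other segments. It was already present in early nephron cells, at 12.4 and 10.8 CPM, so the proximal level was only 7.63-fold and 10.1-fold higher than there. Slc27a2, a fatty acid transport protein and acyl-CoA synthetase, was at 193 and 125 CPM, 100.2-fold (95% interval 67.7 to 155) and 161-fold (95% interval 81.5 to 374) above the other segments. Slc23a1, the sodium-coupled vitamin C carrier, was at 98.0 and 119.9 CPM, 57.7-fold (95% interval 37.9 to 92.4) and 77.1-fold (95% interval 47.2 to 135) above them. In all 6 genes both proximal values lay above every value of the other 12 classes. All 6 reached the limit of 2000 UMIs only through proximal cells, with 237 (Slc7a12) to 1204 UMIs (Slc34a1) outside them, so their differences are given as a description. Their fitted log2 fold changes ran from 7.24 for Slc27a2 to 10.55 for Slc7a12, and several moved when a replicate was left out. Without replicate 1 they were 12.73 for Slc7a12, 9.89 for Slc22a6 (8.05 with both) and 9.05 for Slc2a2 (8.02 with both). Without replicate 2 they were 9.03 for Slc2a2, 9.06 for Slc34a1 (8.63 with both) and 7.59 for Slc27a2. The part of segments with few or 0 UMIs, and of the prior count, in these shifts was not tested.

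**Figure D2:**
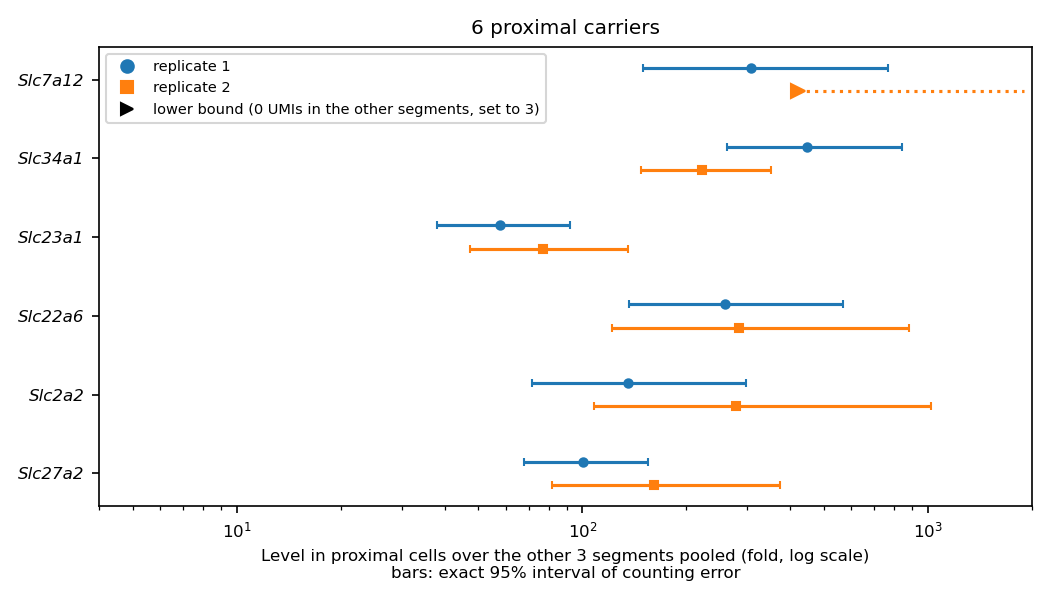
Level of 6 carriers in proximal cells divided by their level in loop, distal and collecting duct cells pooled, per library (log axis, bars are exact 95% intervals of counting error, the triangle with a dotted line is a lower bound for Slc7a12 in replicate 2). Slc23a1 has the lowest ratios, 57.7-fold (95% interval 37.9 to 92.4) and 77.1-fold (95% interval 47.2 to 135).

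Single carriers of bicarbonate, amino acids, zinc, folate and sugar phosphate were also higher in proximal cells. Slc4a4, the basolateral sodium-bicarbonate cotransporter (GRCm38.p6 chromosome 5, 88793858 to 89239656), was at 369 and 350.0 CPM in proximal cells and at 17.1 to 23.8 CPM in the other segments, a log2 fold change of 4.34 ± 0.12 (SE, 2 libraries, adjusted p = 3e-20). Its second level lay outside the tubule: stroma held 50.1 and 48.8 CPM, and the proximal level was 7.38-fold and 7.17-fold the stromal one. The members in the rest of this paragraph were chosen after their values were seen. The set holds 4 members of the Slc6 family, which carries amino acids, taurine and creatine. The neutral amino acid carrier Slc6a18, at 107 and 87.0 CPM in proximal cells (fitted log2 difference 7.18), and the GABA and taurine carrier Slc6a13, at 113 and 94.8 CPM (5.86), reached the limit of 2000 UMIs only through these cells. The creatine carrier Slc6a8 and the taurine carrier Slc6a6 were higher in proximal cells by 1.22 ± 0.10 and 0.86 ± 0.10, and Slc6a6 was highest in endothelial cells, at 343 and 353 CPM. The zinc importer Slc39a5 was at 137 and 169 CPM against 0.908 to 3.42 CPM in the other segments (6.16, also a member only through proximal cells), while of the 9 Slc39 members 3 were higher and 3 lower. Slc47a1, which exports organic cations and was again a member only through proximal cells, was at 102 and 148 CPM and reached 21.2 and 23.6 CPM in early nephron cells. The reduced folate carrier Slc19a1 (2.66 ± 0.12) and the glucose-6-phosphate carrier of the endoplasmic reticulum Slc37a4 (3.49 ± 0.13) were higher as well. So was the scaffold Slc9a3r1, at 291 and 298 CPM (2.92 ± 0.10).

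Members that were low in proximal cells carry choline, nucleosides and glutamate, among others. Slc44a2, a choline transporter-like protein, was at 1.20 and 0.945 CPM in proximal cells against 12.8 to 30.1 CPM in the other segments (-3.97 ± 0.24, adjusted p = 3.6e-13). Slc29a1, an equilibrative nucleoside carrier, was at 1.20 and 2.13 CPM (-3.74 ± 0.26). The glutamate carrier Slc1a3 and the glutamine carrier Slc1a5 fell by 4.46 and 2.84 on the log2 scale. Slc2a1, the glucose carrier of most tissues, was at 19.1 and 11.9 CPM in proximal cells and at 25.3 to 49.7 CPM in the other segments (-0.99 ± 0.17, adjusted p = 3.1e-05). Slc2a2 and Slc2a1 thus lay on opposite sides of the proximal comparison. Slc12a2, a sodium-potassium-chloride cotransporter, did not pass (-0.03 ± 0.19, adjusted p = 0.94).

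The largest increases in loop cells were those of Slc12a1, a salt carrier, Slc16a12, whose proximal and loop levels overlapped, and the inositol carrier Slc5a3. Against the mean of the other 3 segments, 21 of the 129 members were higher (16.3%, against 12.1% of all genes tested) and 33 were lower (25.6%, against 9.37%). In either direction 21.4% of all genes were called. Among the lower members were all 4 Slc6 genes, of which Slc6a18 and Slc6a13 are members only through proximal cells. Of the 23 Slc25 genes, 6 were lower and 1 was higher. Without cells of over 50000 UMIs, an alternative added after the data were seen, 17 members were higher and 16 lower, and with a stricter gate, also added later, 24 and 25.

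Slc12a1, the sodium-potassium-chloride cotransporter of the thick ascending limb and target of loop diuretics (GRCm38.p6 chromosome 2, 125152510 to 125230002), was the leading loop member. It stood at 2245 and 2079 CPM in loop cells, at 849 and 95.3 CPM in distal cells and at no more than 21.3 CPM in any other class. The loop values agree closely between libraries and the distal values do not. The loop log2 fold change was 6.33 ± 0.30 (adjusted p = 2.5e-14), and 6.97 without replicate 1. Thinned to 3000 UMIs, 77.9% (exact 95% interval 70.3 to 84.2) and 71.1% (exact 95% interval 63.7 to 77.7) of loop cells held a UMI of Slc12a1, against 2.24% and 2.92% of erythroid cells. Unthinned, the loop shares were 88.7% and 86.7% at median depths of 19397 and 17660 UMIs. Free RNA held 179.7 and 165 CPM.

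The distal level of Slc12a1 came from a minority of cells. More than 10 UMIs of Slc12a1 per 10000 were found in 8 of 49 distal cells in replicate 1 and in 2 of 22 in replicate 2, against 94 of 150 and 84 of 173 loop cells. No UMI was found in 26 and 16 distal cells. The distal log2 fold change was 3.11 ± 0.35 (adjusted p = 4.2e-07), made up of 4.26 in replicate 1 and 0.92 in replicate 2. Under the stricter gate, with 21 and 15 distal cells, Slc12a1 was at 38.5 and 38.9 CPM and the direction turned (-0.64, adjusted p = 0.45). Without cells of over 50000 UMIs it was at 1214 and 335 CPM in 33 and 16 distal cells, and with up to 20% mitochondrial UMIs at 1153 and 802 CPM. Loop markers were present in the distal class at the levels given above, and their part in this value was not tested.

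The other leading loop members carry organic solutes and cations. Slc5a3, the sodium-coupled myo-inositol carrier, was at 194 and 191 CPM in loop, 135 and 77.2 CPM in distal and 11.6 and 9.57 CPM in proximal cells (loop 2.57 ± 0.10, adjusted p = 1.7e-16). Slc24a5, a cation exchanger of intracellular compartments known from pigment cells, was at 60.2 and 57.3 CPM in loop cells and next highest in early nephron cells, at 35.6 and 38.4 CPM (loop 2.55 ± 0.14). Slc16a12, a member of the monocarboxylate family that carries creatine, was at 61.4 and 68.0 CPM in loop and 69.2 and 65.7 CPM in proximal cells, and at 0.298 to 9.65 CPM in distal and collecting duct cells. Its loop and proximal values overlapped, and both segments passed against the others (loop 2.81 ± 0.16, and 3.5 without replicate 1; proximal 3.08 ± 0.15). Slc1a3 was at 31.9 and 32.5 CPM (2.46 ± 0.23) and Slc29a1 at 31.4 and 36.4 CPM (1.94 ± 0.17) in loop cells. Of these, Slc1a3 was highest in nephron progenitors and Slc29a1 in endothelial cells, whereas Slc12a1, Slc5a3 and Slc24a5 had their highest level in the loop.

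**Figure D3:**
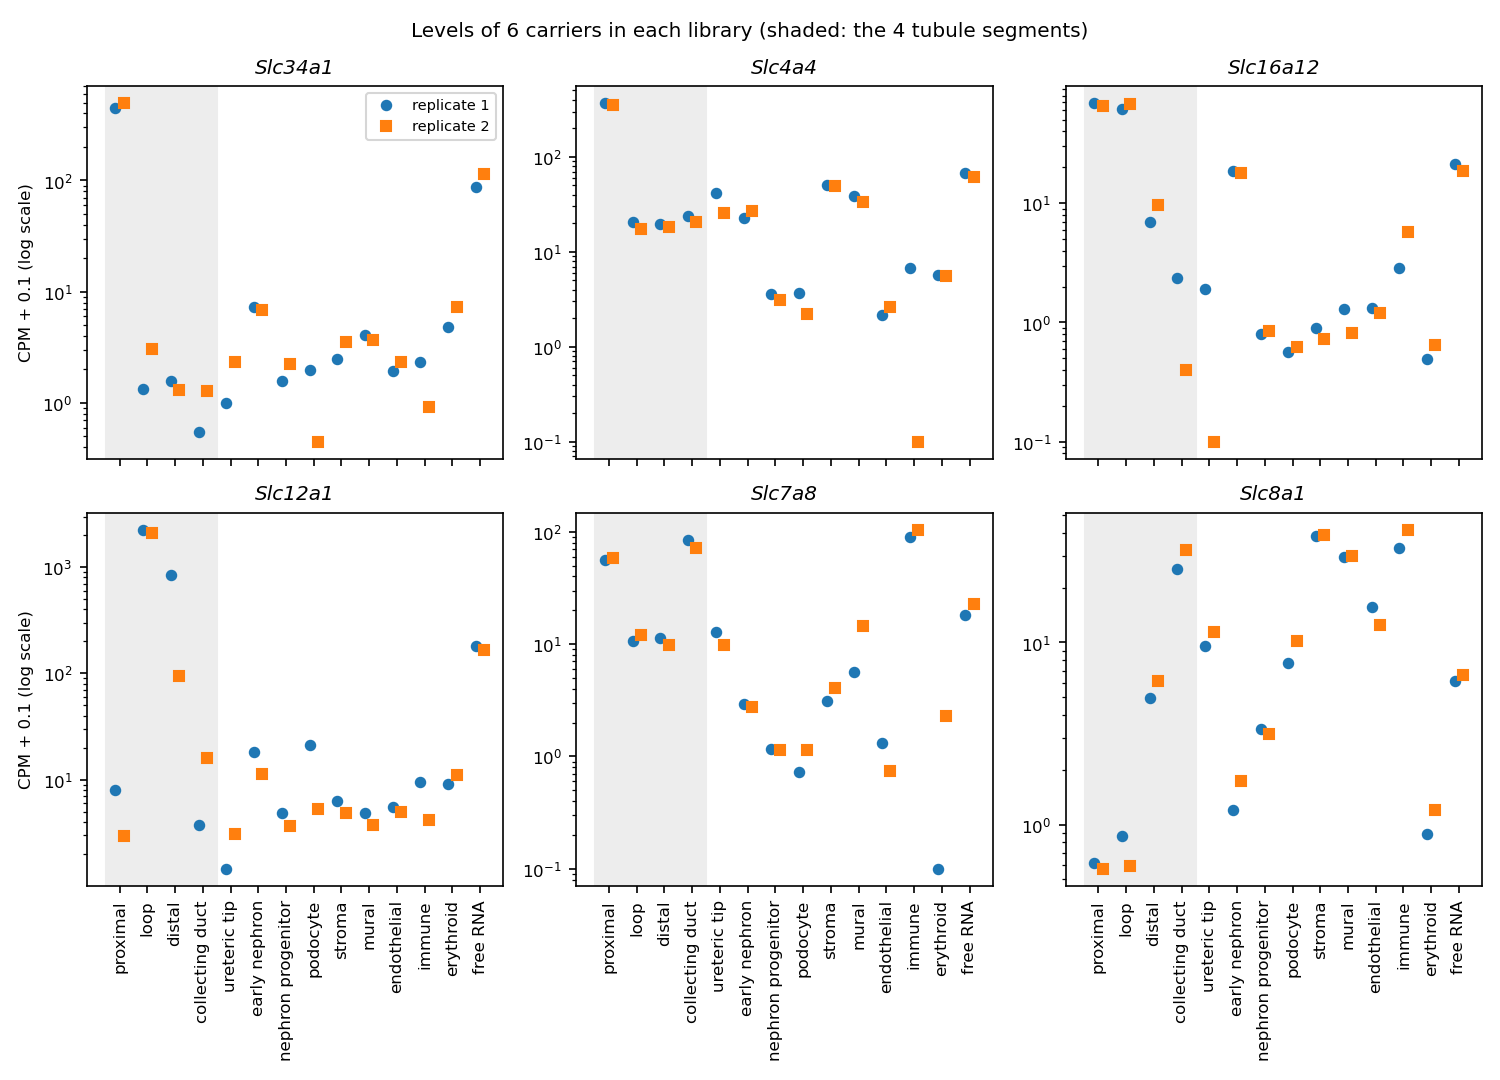
Levels of 6 carriers per library (circles replicate 1, squares replicate 2; log axis of CPM + 0.1) in the 13 classes and in free RNA, with the 4 tubule segments shaded. Slc34a1 and Slc4a4 peak in proximal cells, Slc16a12 in proximal and loop cells and Slc12a1 in loop cells with unequal distal values, while Slc7a8 and Slc8a1 are high in collecting duct cells and in classes outside the tubule.

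Among the members higher in distal cells were the amino acid carriers Slc25a12 and Slc1a5, while the inositol carrier Slc5a3 was higher there than in the mean of the other segments but below its loop level. Against the mean of the other 3 segments, 18 of the 129 members were higher (14.0%, against 8.15% of all genes tested) and 25 were lower (19.4%, against 8.74%). In either direction 16.9% of all genes were called. With up to 20% mitochondrial UMIs allowed, distal cells numbered 102 and 98, and 39 members were higher and 34 lower. Without cells of over 50000 UMIs 9 were higher and 9 lower. Scaled by library size alone the counts were 25 and 21, with a median over all genes of 0.049, against -0.075 in the fit reported.

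Slc25a12, the mitochondrial aspartate-glutamate carrier, was at 90.4 and 73.6 CPM in distal cells and at 15.01 to 38.4 CPM in the other segments (1.54 ± 0.13, adjusted p = 2.3e-09). Its 2 distal values lay above those of all other classes. Slc1a5, the glutamine carrier, was at 80.1 and 45.9 CPM in distal and 45.1 and 40.1 CPM in loop cells (1.55 ± 0.15, adjusted p = 5.3e-08), so the lower distal value lay close to the loop. Slc36a4, an amino acid carrier, was at 19.1 and 13.3 CPM in distal cells and higher in podocytes, at 36.7 and 32.9 CPM. Its distal difference (1.78 ± 0.24, adjusted p = 7.6e-06) was not called under the stricter gate (1.18, adjusted p = 0.10) or without cells of over 50000 UMIs (0.97, adjusted p = 0.49). Slc1a3 was at 28.3 and 10.9 CPM (1.65 ± 0.36, adjusted p = 0.0018, and 0.94 without replicate 1), and Slc5a3 differed by 1.43 ± 0.13. Distal cells thus shared Slc5a3 and Slc1a3 with the loop, and their highest levels over all classes among these genes were those of Slc25a12 and Slc1a5.

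The largest increases in collecting duct cells included the calcium exchanger Slc8a1 and the glucose carrier Slc2a8, and also the iron exporter Slc40a1, whose level was higher still in proximal cells. Against the mean of the other 3 segments, 25 of the 129 members were higher (19.4%, against 19.7% of all genes tested) and 46 were lower (35.7%, against 13.1%). In either direction 32.9% of all genes were called. The share of higher members was near that of all genes. Of the 23 Slc25 members, 12 were lower and 3 higher. Without cells of over 50000 UMIs, 17 members were higher and 23 lower.

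Slc8a1, the sodium-calcium exchanger of the plasma membrane (GRCm38.p6 chromosome 17, 81373105 to 81738387), had the largest collecting duct difference. It was at 25.2 and 32.1 CPM there, 4.89 and 6.03 CPM in distal cells and 0.473 to 0.770 CPM in proximal and loop cells (fitted log2 difference 4.54). It held 1915 UMIs outside collecting duct cells, so it reached the limit only with them. The collecting duct level was 5.16-fold and 5.33-fold the distal one, and distal cells did not pass against the other segments (1.20 ± 0.41, adjusted p = 0.056). Outside the tubule the gene was higher in both libraries in stroma, at 38.2 and 38.6 CPM, and in immune cells, at 32.9 and 41.4 CPM, and overlapped the collecting duct values in mural cells, at 29.4 and 29.7 CPM. The stromal marker list summed to 12.7 and 20.2 CPM in collecting duct cells, against 7417 and 7646 CPM in stroma, and the immune list to 88.3 and 83.3 CPM, against 16822 and 15093 CPM in immune cells.

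Slc40a1, Slc7a8 and Slc3a2 were high at both ends of the tubule and low between them. Slc40a1, the iron exporter ferroportin (GRCm38.p6 chromosome 1, 45908070 to 45926532), was at 79.9 and 82.1 CPM in collecting duct and 113 and 92.1 CPM in proximal cells, but at 2.41 to 7.06 CPM in loop and distal cells. It passed in both segments (collecting duct 2.69 ± 0.24, proximal 3.32 ± 0.21). Slc7a8, a carrier of neutral amino acids, was at 85.1 and 71.7 CPM in collecting duct, 55.4 and 57.9 CPM in proximal and 9.65 to 11.98 CPM in loop and distal cells (collecting duct 2.05 ± 0.15, proximal 1.58, the latter a description since it held 1760 UMIs outside proximal cells). Slc3a2, the heavy chain that several Slc7 light chains need at the cell surface, was at 89.2 and 82.1 CPM in collecting duct, 128 and 103 CPM in proximal and 47.6 to 54.7 CPM in loop and distal cells. Its differences were smaller, at 1.09 ± 0.09 in proximal (adjusted p = 1.9e-10) and 0.34 ± 0.10 in collecting duct cells (adjusted p = 0.011). Immune cells held the highest level of all 3 genes.

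Slc2a8, an intracellular glucose carrier, had its highest level in collecting duct cells, at 49.3 and 55.7 CPM against 5.91 to 13.3 CPM in the other segments (fitted log2 difference 2.36). It too fell under the limit without collecting duct cells (1964 UMIs), and also without early nephron cells (1969 UMIs) or nephron progenitors (1927 UMIs). Slc44a2 was at 29.1 and 30.1 CPM (2.18 ± 0.17) and Slc38a4, a neutral amino acid carrier, at 44.3 and 36.0 CPM (2.17 ± 0.21), both of them higher in a class outside the tubule. Slc12a2 was at 71.3 and 50.3 CPM in collecting duct and 20.5 to 39.7 CPM in the other segments (0.91 ± 0.20, adjusted p = 0.00088). The glucose carriers Slc2a2, Slc2a1 and Slc2a8 thus had their highest mean level in proximal, loop and collecting duct cells, although the loop values of Slc2a1 (49.7 and 30.9 CPM) overlapped its distal ones (41.5 and 31.4 CPM).

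Over the 4 segments together, most mitochondrial carriers and the peptide carrier Slc15a2 were higher than in the mean of 6 other classes. Against the mean of stroma, endothelial, immune, erythroid, nephron progenitor and podocyte cells, 63 of the 129 members were higher (48.8%, against 30.6% of all genes tested) and 26 were lower (20.2%, against 22.8%) in the mean of the 4 segments. Of the 129, 32 reached the limit of 2000 UMIs only with the 4 segments, and of the other 97 there were 50 higher and 21 lower. In either direction 53.4% of all genes were called. The median log2 fold change was 0.31 over the members and 0.06 over all genes. Erythroid RNA is mostly globin, and the scaling matters here: by library size alone 102 members were higher and 8 lower, with a median of 0.68 over all genes. Without cells of over 50000 UMIs the split was 41 and 27.

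The leading tubule members were Slc16a12 (3.37), Slc12a1 (2.99 ± 0.38), Slc15a2 (2.82 ± 0.11), Slc7a8 (2.77, and 4.36 without replicate 2) and Slc39a5 (2.62). Slc16a12, Slc7a8 and Slc39a5 are given without a test, since they held 1193, 972 and 978 UMIs outside the 4 segments. Slc15a2, a proton-coupled peptide carrier, was the most evenly spread of these, at 97.7 and 110.2 CPM in proximal, 91.9 and 72.4 CPM in loop, 94.3 and 53.1 CPM in distal and 31.8 and 31.0 CPM in collecting duct cells, and at most 15.6 CPM in the 6 comparison classes (adjusted p = 5.9e-17). Slc34a1 (0.74), Slc22a6 (0.66) and Slc2a2 (1.31) held 1168, 522 and 761 UMIs outside the 4 segments and are likewise given without a test. Slc8a1 fell by 2.39 on the log2 scale in the tubule as a whole, also given without a test since it held 1882 UMIs outside the 4 segments. Slc2a1 was higher (0.61 ± 0.12, adjusted p = 0.0001), and Slc12a2 (-0.57 ± 0.16) and Slc3a2 (-0.50 ± 0.06) were lower, though by library size alone these last 2 lay above 0, at 0.07 for Slc12a2 and 0.14 for Slc3a2.

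Mitochondrial carriers, which pass nucleotides, phosphate and metabolites across the inner membrane, were the largest family. Of the 23 Slc25 members, 15 were higher in the tubule (where 30.6% of all genes were higher and 22.8% lower) and 3 were lower (Slc25a37, Slc25a24 and Slc25a51, the last turning from -0.15 to 0.49 by library size alone, adjusted p = 1.4e-08), with a median log2 fold change of 0.79. By library size alone 21 were higher and 1 was lower, with a median of 0.68 over all genes. The ADP/ATP carriers Slc25a5 and Slc25a4 differed by 1.34 ± 0.04 and 0.52 ± 0.04, the phosphate carrier Slc25a3 by 0.95 ± 0.04 and the aspartate-glutamate carrier Slc25a13 by 2.15 ± 0.09. Slc25a5 and Slc25a4 were distributed differently: nephron progenitors held 1169 and 1196 CPM of Slc25a4, close to the 1163 and 1086 CPM of distal cells, and 226 and 220.1 CPM of Slc25a5, against 1113 and 1117 CPM in distal cells. The summed level of the family was 4433 and 4242 CPM in proximal, 3820.0 and 3787 CPM in loop, 4803 and 4613 CPM in distal and 3193 and 3182 CPM in collecting duct cells, 1783 to 2678 CPM in the 8 nucleated classes outside the 4 segments, and 964 and 1232 CPM in erythroid cells. Slc25a3, Slc25a4 and Slc25a5 carried most of these sums in the 12 nucleated classes. Without them the other 20 members summed to 954 to 1211 CPM in proximal, loop and distal cells, 876 and 839 CPM in collecting duct cells, 466 to 737 CPM in the 8 nucleated classes and 827 and 1048 CPM in erythroid cells, whose values then overlapped those of the segments. The median share of mitochondrial UMIs per cell was 6.17% to 7.91% in the segments and 3.87% to 6.33% in those 8 classes, and its part in the result was not tested.

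**Figure D4:**
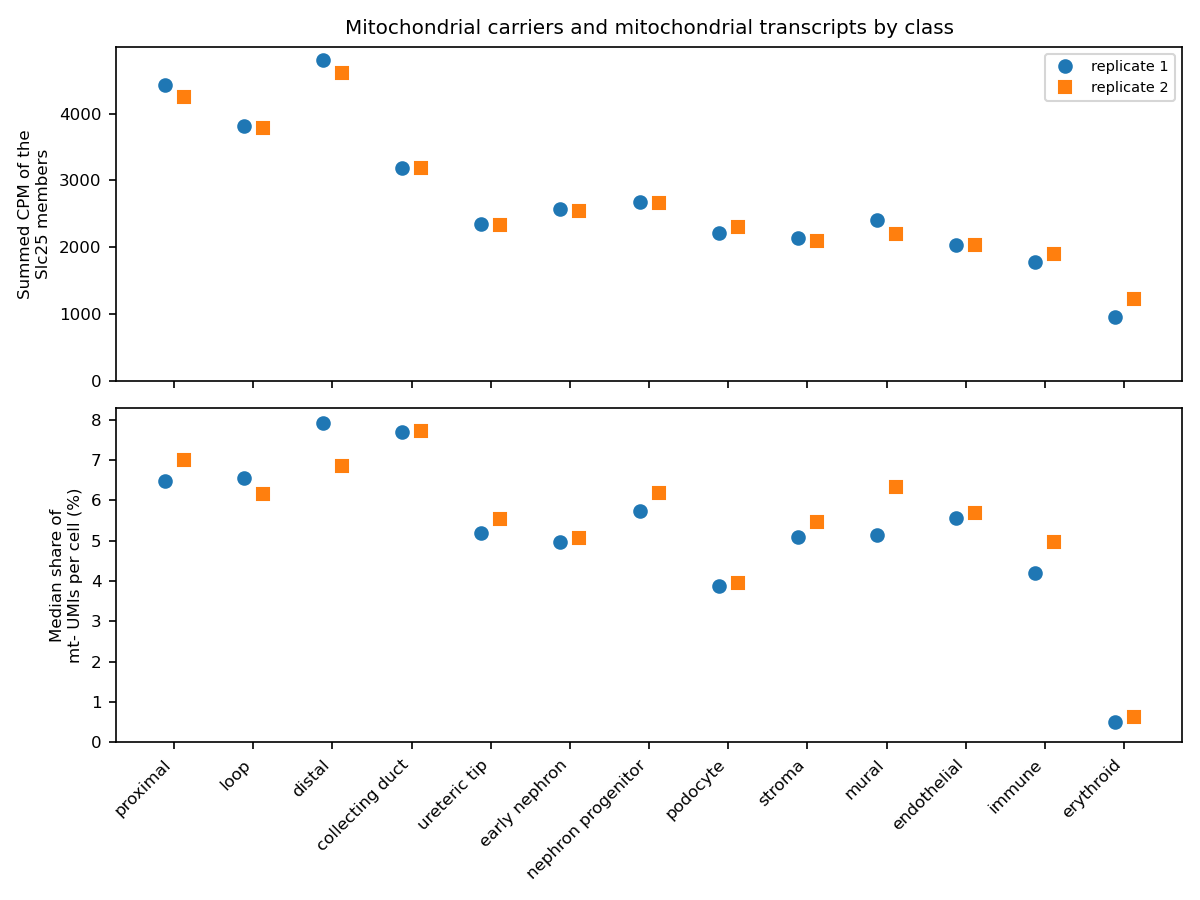
Summed CPM of the 23 Slc25 members (top) and median percentage of mitochondrial UMIs per cell (bottom) in each class, per library. The 4 segments hold the highest sums, 3182 to 4803 CPM, and erythroid cells the lowest of both measures, a rank of the sum that does not hold without Slc25a3, Slc25a4 and Slc25a5.

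Other intracellular families differed by smaller amounts. Of the 14 Slc35 members, nucleotide-sugar carriers and relatives, 7 were higher in the tubule and 1 lower, with a median of 0.26 (by library size alone 13 higher and 0 lower). Their summed level was 442 and 419.5 CPM in proximal cells and 278 and 254 CPM in endothelial cells. Of the 6 zinc exporters (Slc30), 2 were higher and 1 lower, and of the 9 zinc importers (Slc39) 3 were higher and 0 lower. These shares of higher members were near the 30.6% of all genes, and they depend on the scaling. By library size alone all 6 Slc30 and all 9 Slc39 members were higher, with DESeq2 size factors 3 Slc39 members were higher and 2 lower, and without the erythroid class 3 and 3.

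**Figure D5:**
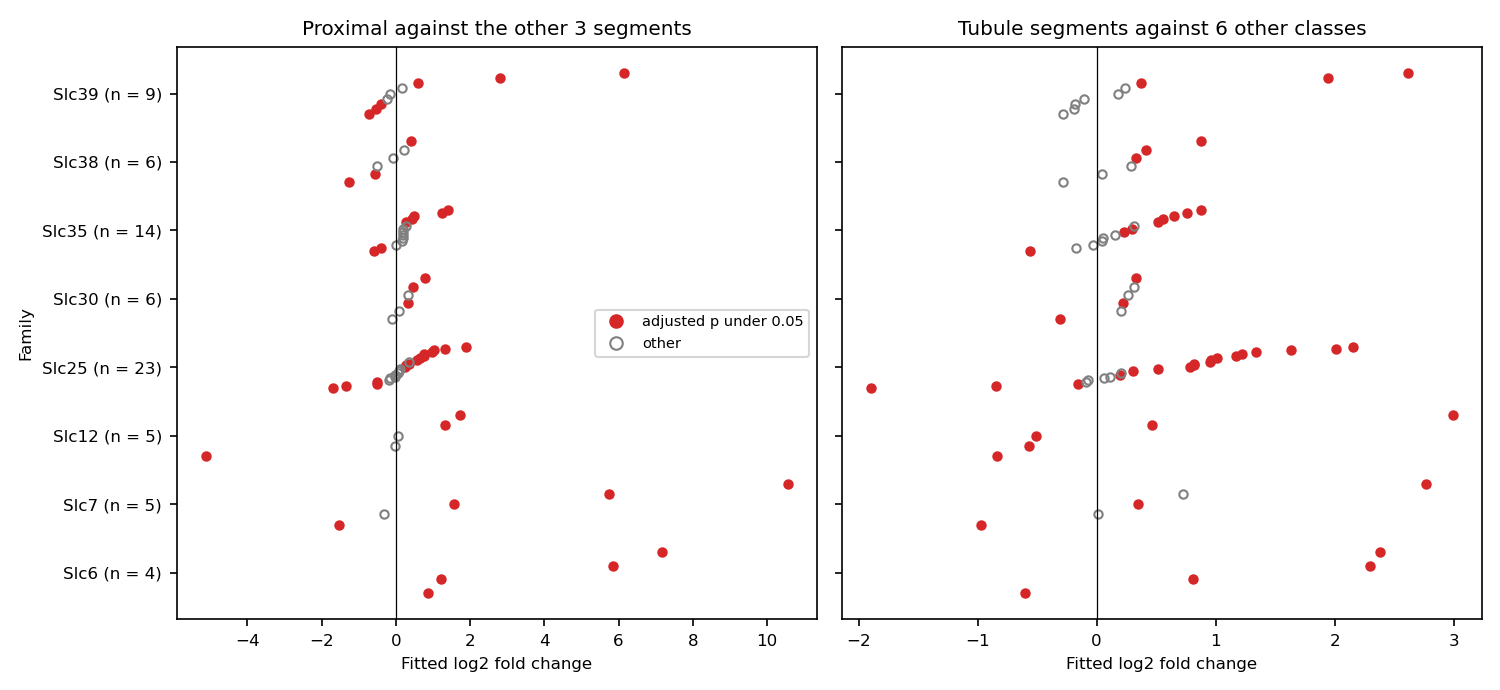
Fitted log2 fold changes of the members of families with at least 4 carriers (each point is a gene, filled where the adjusted p was under 0.05) in proximal cells against the other 3 segments (left) and in the tubule against 6 other classes (right), under TMM scaling. All 4 Slc6 members lie above 0 on the left, of which Slc6a18 and Slc6a13 are members only through proximal cells, and most of the 23 Slc25 members lie above 0 on the right.

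Genes that work with the carriers were described from a list of the sodium pump, carrier partners, channels, kinases, carbonic anhydrases and the mitochondrial pyruvate carrier. Of the 24 found, 22 were higher in the tubule and 1 was lower (Wnk1, a kinase that regulates cation-chloride cotransporters), with a median log2 fold change of 2.91, where 30.6% of all genes were higher. In distal cells 14 of the 24 were higher and 4 lower (8.15% and 8.74% of all genes), and in loop cells 11 and 3 (12.1% and 9.37%). More were lower than higher in proximal cells, 9 higher and 11 lower (25.9% and 23.1%), and in collecting duct cells, 7 and 12 (19.7% and 13.1%). Atp1b1, a subunit of the sodium pump that drives sodium-coupled carriers, was at 2678 and 2229 CPM in distal, 1794 and 1840.0 CPM in loop, 978 and 951 CPM in collecting duct and 791 and 748 CPM in proximal cells. This subunit was highest of the 4 segments in distal cells and lowest in proximal cells. Fxyd2, the gamma subunit of the pump, had another order: it was at 2911 and 3282 CPM in proximal, 2125 and 2265 CPM in loop, 1595 and 457 CPM in distal and 35.7 and 34.5 CPM in collecting duct cells. Kcnj1, the potassium channel that returns potassium to the lumen of the thick limb, was at 109 and 117 CPM in loop and 84.0 and 45.9 CPM in distal cells, and at 0.514 and 0.236 CPM in proximal cells. Tmem27, which brings apical amino acid carriers of the Slc6 family to the membrane, was at 294 and 336 CPM in proximal cells.

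The remaining comparisons set each class outside the tubule against the mean of all others. In stroma 29 of the 129 members were higher (22.5%, against 32.9% of all genes tested) and 52 were lower (40.3%, against 21.1%), with 54% of all genes called in either direction. By library size alone 45 were higher and 34 lower, where the median log2 fold change over all genes was 0.261, against 0.065 in the fit reported. Slc40a1 was at 121 and 133 CPM (2.80 ± 0.13) but higher in immune cells, and Slc43a3, a purine nucleobase carrier, was at 66.4 and 56.8 CPM (2.65 ± 0.09) but higher in endothelial cells. Slc8a1 differed by 2.71 and reached the limit only with stroma, with 1336 UMIs outside it. Of the 23 Slc25 members, 17 were lower in stroma and 2 were higher.

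In endothelial cells 34 of the 129 members were higher (26.4%, against 31.2% of all genes tested) and 53 were lower (41.1%, against 21.7%), with 52.9% of all genes called in either direction. The counts were 43 and 39 when scaled by library size alone, with a median over all genes of 0.199, against 0.016 in the fit reported. Slc9a3r2, a scaffold of membrane proteins (GRCm38.p6 chromosome 17, 24639281 to 24650305), was at 678 and 745 CPM in endothelial cells and 518 and 529.5 CPM in podocytes, and at no more than 78.8 CPM in any other class. The endothelial values were 1.31-fold and 1.41-fold those of podocytes. Slc43a3 was at 145 and 119 CPM (3.86 ± 0.08), Slc29a1 at 80.5 and 82.4 CPM (2.56 ± 0.11) and Slc44a2 at 55.7 and 54.2 CPM (2.50 ± 0.10). Slc29a1 and Slc44a2, which were low in proximal cells, were thus highest in endothelial cells.

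In podocytes 39 of the 129 members were higher (30.2%, against 31.9% of all genes tested) and 46 were lower (35.7%, against 22.6%), with 54.5% of all genes called in either direction. By library size alone 59 were higher and 28 lower, with a median over all genes of 0.335, against 0.033 in the fit reported. Beside Slc9a3r2 (4.05 ± 0.09), Slc31a2, a copper carrier of endosomes, was at 198 and 201 CPM (3.60 ± 0.09, adjusted p = 6.5e-22). Slc27a3, an acyl-CoA synthetase of the fatty acid transport family, was at 52.9 and 47.2 CPM (fitted log2 difference 2.97). It held 1584 UMIs outside podocytes, under the limit, and also fell under it without early nephron cells (1848 UMIs) or nephron progenitors (1933 UMIs). Slc26a7, an anion carrier known from acid-secreting cells (GRCm38.p6 chromosome 4, 14502430 to 14621946), was at 0 to 1.14 CPM in the 4 segments. It was highest in mural cells, at 51.3 and 43.4 CPM, and reached 25.2 and 24.9 CPM in podocytes and 15.1 and 15.1 CPM in nephron progenitors. The mural values were 2.04-fold and 1.74-fold those of podocytes, while the podocyte marker list in mural cells summed to 199.7 and 207 CPM, against 12859 and 12698 CPM in podocytes. The fitted podocyte difference was 4.17, and 6.59 without replicate 1, and the part of classes with 0 UMIs in it was not tested. Slc26a7 held 1751 UMIs outside podocytes, 1366 outside nephron progenitors and 1867 outside mural cells, each under the limit.

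In nephron progenitors 23 of the 129 members were higher (17.8%, against 35.4% of all genes tested) and 61 were lower (47.3%, against 21.7%), with 57.1% of all genes called in either direction. Scaled by library size alone, 39 were higher and 45 lower, with a median over all genes of 0.254, against 0.085 in the fit reported. Slc16a1, the lactate and pyruvate carrier, was at 132 and 142 CPM there, 4.91-fold and 4.41-fold its early nephron level, and at no more than 25.5 CPM outside these 2 classes (3.36 ± 0.08, adjusted p = 6e-21). Slc12a2 was at 142 and 168 CPM (1.94 ± 0.12). Slc1a3, a member only through progenitors (1883 UMIs outside them), was at 67.3 and 70.6 CPM (3.74, and 4.80 without replicate 1), at 13.5 and 10.4 CPM in early nephron cells, and at 0.942 and 0.591 CPM in proximal but 31.9 and 32.5 CPM in loop cells. Its progenitor and loop values lay far above the proximal ones. The fitted difference of Slc26a7 was 3.51, and 5.97 without replicate 1.

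In immune cells 47 of the 129 members were higher (36.4%, against 24.9% of all genes tested) and 30 were lower (23.3%, against 24.6%), with 49.5% of all genes called in either direction. Slc40a1 was at 386 and 623 CPM, 3.20-fold and 4.68-fold its stromal level (5.08 ± 0.13, adjusted p = 6.6e-21). Slc43a2, a neutral amino acid carrier, was at 107 and 109 CPM (4.22 ± 0.20, and 4.86 without replicate 2) and Slc7a8 at 90.3 and 104 CPM (4.13 ± 0.17, and 4.93 without replicate 2). Slc7a7, an exchanger of cationic and neutral amino acids, was at 63.0 and 66.6 CPM in immune cells (4.70) and at 59.9 and 49.0 CPM in proximal cells, and at no more than 8.71 CPM in any other class. The immune marker list summed to 14.2 and 6.50 CPM in proximal cells and the proximal list to 295 and 334 CPM in immune cells. Slc7a7 reached the limit only with each of these classes, with 1837 UMIs outside immune and 918 outside proximal cells. Slc40a1 was higher in stroma, and Slc7a8 in collecting duct cells, than in proximal cells.

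In erythroid cells 15 of the 129 members were higher (11.6%, against 7.06% of all genes tested) and 4 were lower (3.1%, against 2.68%), with 9.73% of all genes called in either direction. The count rests on scaling that corrects for the globin share: by library size alone 4 were higher and 112 lower, with a median of -3.31 over all genes. Slc25a37, mitoferrin, which brings iron into mitochondria for heme synthesis (GRCm38.p6 chromosome 14, 69241848 to 69285544), was at 346 and 497 CPM, 15.9-fold and 18.6-fold its immune level before any rescaling (8.07 ± 0.08, adjusted p = 1.3e-29). Slc25a39, a mitochondrial glutathione carrier, was at 408 and 456 CPM (5.16 ± 0.06), and Slc48a1, a heme carrier, at 91.3 and 129 CPM (4.67 ± 0.14). By library size alone these 3 genes remained higher, by 4.85, 1.93 and 1.44, and Slc34a1 by 0.88. Slc34a1 passed in erythroid cells too (4.11 ± 0.48, adjusted p = 4.3e-07) at 4.74 and 7.15 CPM, far under the 86.4 and 115 CPM of free RNA. The 13 proximal markers summed to 47.4 and 86.3 CPM in the same cells, with 2 of them at 0 in replicate 1 and 1 in replicate 2, and their part in this call was not tested.

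Of 20 carriers that textbooks assign to nephron segments, 9 were members and 11 fell below 2000 UMIs. Of the latter, Slc12a3 is given above. In proximal cells Slc3a1, the partner of the cystine carrier, was at 76.6 and 87.8 CPM, Slc7a9, the cystine carrier itself, at 55.2 and 69.7 CPM, the sodium-glucose cotransporter Slc5a1 at 56.8 and 70.2 CPM and the organic anion carrier Slc22a8 at 55.5 and 64.2 CPM. Slc5a2, the other sodium-glucose cotransporter of the proximal tubule, was at 3.60 and 4.25 CPM there. Slc4a1, the anion exchanger of red cells and intercalated cells, was at 88.6 and 87.4 CPM in erythroid and 3.86 and 0.595 CPM in collecting duct cells. Slc9a3, the apical sodium-proton exchanger of the proximal tubule and thick limb, was at 1.46 and 2.13 CPM in proximal and 3.08 and 4.43 CPM in loop cells. Slc14a2, the urea carrier known from the collecting duct, was at 4.995 and 3.57 CPM there and at 10.1 and 3.55 CPM in proximal cells. The other 2 were at no more than 7.04 CPM in any segment.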

How the data were processed

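The authors deposited raw UMI counts per gene and barcode as unfiltered matrices for 2 mutant libraries of the kidney, numbered here in accession order. The matrices were written by Cell Ranger 4, per the file headers, while Cell Ranger 6.0.1 and the build mm10 are named per the submitters' processing notes. Members, gene lists and marker lists were chosen with earlier results of these data known, and the limits of the gates were set after marker levels were seen.

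Barcodes with at least 2000 UMIs and at most 10% mitochondrial UMIs were kept, and the 310 and 212 barcodes with the highest Scrublet scores (scanpy 1.11.5, 0.8% per 1000 barcodes) were removed as doublets. Each marker was log-transformed and scaled to its 95th percentile. A cell joined the class of its highest mean score if that was at least 0.2, at least 3 markers were detected and the score was 1.5 times that of every other class, or at least equal to that of a neighbouring class. UMIs were summed per class and library for the 13 classes that reached 20 cells in both, and fitted with edgeR 4.0.16 (TMM, filterByExpr, library as a block, 26 columns, 12 residual degrees of freedom). Cells were not treated as replicates, and the block follows from both libraries contributing to every class. On data simulated for the proximal comparison over 13957 genes, 89 of 89 genes changed 2-fold and 111 of 111 changed 4-fold were called, with 10 false calls. The simulation gave all classes the same profile and spread apart from 200 changed genes, each with at least 2000 UMIs. It therefore does not cover error rates where classes differ in many genes, as they do here.

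Named genes were the 6 members with the largest increase of at least 2-fold in each segment, 5 in the tubule and 4 in each other class, higher in both libraries, plus textbook carriers. Some members that this rule gives are not reported here. Others are said to be chosen later, or belong to a family or to the lower side of a comparison. Free RNA came from barcodes with more than 100 and at most 500 UMIs (91329 and 90916 barcodes), added because the planned window of 10 to 100 UMIs held 39702 in each library at a median of 15 UMIs. Coordinates are RefSeq's (GRCm38.p6), where all 129 symbols matched. Sequences of promoters and proteins were not used here. DESeq2 1.42.0 and other scalings, filters and gates were run as alternatives.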

Additional observations from a re-analysis of the deposited data

How the results depend on the processing

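The number of members called in the 11 comparisons was recomputed under 149 combinations of comparison and alternative, and 144 stayed within 1.5 times the value reported. The exceptions were distal cells with up to 20% mitochondrial UMIs (73), erythroid cells scaled by library size alone (116), and, without cells of over 50000 UMIs, loop (33), distal (18) and collecting duct cells (40), where fewer cells entered. Scaling by library size alone and both settings that allow 10 cells per class were chosen after seeing the data. Of 704 tested alternative values for 53 named fold changes, 700 kept direction and call. Another 3 lost their call: Slc36a4 in distal cells under 2 settings and Slc39a5 in the tubule, given above without a test, under 1. The last 1 reversed, Slc12a1 in distal cells under the stricter gate (-0.64), and the cause was not tested. The 53 were picked from these data as large increases that passed, so calls that stayed are no independent evidence. They include members given above without a test. Without the replicate block 87 members were called in proximal, 49 in loop, 43 in distal and 64 in collecting duct cells and 89 in the tubule. Leaving out a replicate leaves 1 column per class and no residual degrees of freedom, so it gave 106 fold changes without a test, of which 30 moved by more than the spread between replicates. With a minimum of 20 cells, the 5% mitochondrial limit, the stricter gate and the removal of cells over 50000 UMIs left too few distal or collecting duct cells for segment comparisons, which were not run.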

Other observations

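The mitochondrial limit bears on how many tubule cells were counted. With up to 20% mitochondrial UMIs, distal cells numbered 102 and 98 instead of 49 and 22, collecting duct cells 132 and 131 instead of 91 and 79, loop cells 214 and 240 instead of 150 and 173, and proximal cells 395 and 337 instead of 314 and 235. Slc12a1 then stood at 1153 and 801.7 CPM in distal cells.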
